A study of Homo sapiens with 6 samples.

Results

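The chaperonin TRiC, also called CCT, is the cytosolic folding chamber of eukaryotic cells. It is built from back-to-back rings, and each ring holds 1 copy of 8 related subunits: TCP1, CCT2, CCT3, CCT4, CCT5, CCT6A, CCT7 and CCT8. The ring binds ATP, and ATP hydrolysis closes a lid over the bound client. Actin and tubulin are its best-known clients, and many proteins with WD40 propellers, such as the mitotic activator CDC20, also fold inside it. Because the ring needs each subunit at a fixed place, the relative abundance of the 8 transcripts was examined along with their levels. The members were the rows of the deposited gene count table that carry these 8 symbols, 8 of 26334 genes in all. All 8 passed the filter on low counts and were among the 16117 genes tested.

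The libraries came from MCF10DCIS.com (hereafter MCF10DCIS), an established human breast cancer cell line that carries basal features and forms lesions resembling ductal carcinoma in situ. The control cells (shLuc, n = 3) carried a hairpin against luciferase, and the silenced cells (shWDR5, n = 3) carried a hairpin against WDR5, a WD40 protein shared by the complexes that methylate lysine 4 of histone H3. Hairpins of both groups were expressed from the U6 promoter of the same lentiviral backbone, pRSI with TagRFP and a puromycin marker, and all cells were selected with puromycin at 3 µg/ml and grown in DMEM/F12 with horse serum. The study describes pooled WDR5 hairpins for its MCF10DCIS experiments in mice, but whether these RNA libraries came from the pool is not given in the sources used here, and a single control hairpin was used. The study's methods speak of biological replicates for its data in general. The labels of these libraries number the replicates without saying that they were separate cultures, so p-values measure the spread between these libraries, which may be technical.

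Between 38218108 and 57640167 reads per library were assigned to genes. WDR5 was measured at 52.6, 48.5 and 51.3 counts per 1000000 reads (CPM, scaled by the trimmed mean of M-values, TMM) in shLuc cells and at 23.4, 24.4 and 20.8 in shWDR5 cells. The hairpin target was thus 55.0% lower in the silenced cells (log2 fold change -1.15 ± 0.074 SE, adjusted p = 8.67e-07 by edgeR's quasi-likelihood test with Benjamini-Hochberg adjustment over all genes tested, which is the test behind every adjusted p given here where no other is named). The cells carried their epithelial and basal markers. The 4 epithelial markers (CDH1, EPCAM, KRT8, KRT18) summed to between 2057 and 2163 RPKM (reads per kilobase of exon, scaled here by library total) in shLuc and between 1830 and 1941 in shWDR5, and 2 of the 4 were lower. These were CDH1 (log2 fold change -1.03 ± 0.053 SE, adjusted p = 2.64e-07) and EPCAM (-0.33 ± 0.075, adjusted p = 0.00317). KRT8 and KRT18, which made up most of the sum, did not pass the test. The 4 basal markers (KRT5, KRT14, KRT17, TP63) summed to between 1758 and 1906 in shLuc and between 3141 and 3567 in shWDR5, and 4 of 4 were higher. The 5 mesenchymal or fibroblast markers summed to between 167 and 199 in shLuc and between 405 and 422 in shWDR5, nearly all of it VIM. VIM was higher (log2 fold change 1.21 ± 0.075 SE, adjusted p = 7.08e-07) and COL1A1 lower (-0.50 ± 0.082, adjusted p = 0.000438). PDGFRB did not pass the test, and COL1A2 and DCN were removed by the filter on low counts. The 3 leukocyte markers summed to at most 7.13 RPKM, with CD3E at 0 in every library, and the 2 endothelial markers to at most 1.56. The part of these marker shifts in the chaperonin results was not tested.

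The transcripts of most chaperonin subunits were lower in shWDR5 than in shLuc cells, but by very unequal amounts. CCT7 and CCT4 fell most, TCP1, CCT2, CCT5 and CCT8 fell modestly, and CCT3 and CCT6A did not pass the test. In all, 6 of the 8 subunits were lower at an adjusted p under 0.05, where 29.9% of all genes tested were lower. None was higher, at an adjusted or an unadjusted p under 0.05 in edgeR, by DESeq2 or by edgeR's exact test, where 26.6% of all genes tested were higher by the quasi-likelihood test. The median log2 fold change was -0.31 over the 8 subunits and -0.011 over all genes tested. By the cut-offs the study used for differential expression (adjusted p under 0.05, absolute log2 fold change of at least 0.6 and more than 0.5 RPKM), 2 of the 8 subunits were lower, where 10.1% of all genes were. Libraries of the groups did not overlap in CPM for the same 6 subunits, all of them lower, where 32.4% of all genes showed such a separation in that direction. As these are bulk libraries, fewer cells with a transcript and less of it per cell cannot be told apart.

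CCT7, the eta subunit, had the largest fall of the ring. It was measured at 556, 520 and 509 CPM in shLuc cells and at 266, 261 and 241 CPM in shWDR5 cells. Every silenced library lay far below every control library, and the distance between groups was many times the spread within them. The log2 fold change was -1.04 ± 0.059 (SE), a fall of 51.5% (adjusted p = 4.47e-07). Of the 16117 genes tested, 622 had a lower log2 fold change than CCT7. CCT7 lies on the plus strand of chromosome 2 (hg19, chr2:73461364-73480150), and the exons counted for it span 2032 bases.

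CCT4, the delta subunit, whose alteration causes a sensory neuropathy in rats, followed. It gave 486, 462 and 488 CPM in shLuc cells and 269.8, 271 and 249 CPM in shWDR5 cells. The groups were again wide apart. The log2 fold change was -0.86 ± 0.055 (SE), a fall of 45.0% (adjusted p = 8.44e-07), and 990 genes tested had a lower value. CCT4 also lies on chromosome 2, on the minus strand (hg19, chr2:62095262-62115806). Among the 649 genes whose mean level over the 6 libraries was at least that of the lowest subunit, 92.2 RPKM, the median log2 fold change was 0.097, and 12 genes, CCT4 and CCT7 included, had a value at or below that of CCT4.

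A group of 4 subunits fell by a similar, smaller amount, with log2 fold changes between -0.32 and -0.25. TCP1, the alpha subunit and the founding member of the family, gave 351, 346 and 364 CPM in shLuc and 289, 290.2 and 284 CPM in shWDR5. Its log2 fold change was -0.30 ± 0.048 (SE, adjusted p = 0.000401). CCT8, the theta subunit, gave 389, 374 and 395 CPM in shLuc and 305, 320.4 and 302 CPM in shWDR5. The groups did not overlap for either gene. For CCT8 the log2 fold change was -0.32 ± 0.051 (SE, adjusted p = 0.000357). CCT2, the beta subunit, in which inherited variants cause a retinal degeneration, gave 298, 283 and 307 CPM in shLuc and 241, 248 and 227 CPM in shWDR5, a log2 fold change of -0.31 ± 0.056 (SE, adjusted p = 0.000861). CCT5, the epsilon subunit, which like CCT4 can form rings on its own when made in bacteria, gave 404, 395 and 411 CPM in shLuc and 333, 349.9 and 336 CPM in shWDR5. Every silenced library again lay below every control library for both genes. The log2 fold change of CCT5 was -0.25 ± 0.049 (SE, adjusted p = 0.00144), the smallest of the 6 falls that passed the test.

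CCT3 and CCT6A stood apart from the other subunits. CCT3, the gamma subunit, gave 622, 585 and 606 CPM in shLuc and 651, 634 and 618 CPM in shWDR5. The groups overlapped, with the highest control library above the lowest silenced library. The log2 fold change of CCT3 was 0.070 ± 0.050 (SE, adjusted p = 0.259), with a 95% interval from -0.041 to 0.18. CCT6A, the zeta subunit, gave 349, 354 and 378 CPM in shLuc and 358, 386 and 379 CPM in shWDR5. Here too the groups overlapped. Its log2 fold change was 0.056 ± 0.055 (SE, adjusted p = 0.418), with a 95% interval from -0.066 to 0.18. Both intervals lie above the intervals of the other 6 subunits, the nearest of which reaches up to -0.14 for CCT5. The sign of CCT6A turned when libraries were scaled by their totals alone, to a log2 fold change of -0.0016. In the assembled ring CCT3 and CCT6A are neighbours, whereas CCT4 sits between CCT2 and TCP1 and CCT7 between CCT5 and CCT8.

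**Figure D1:**
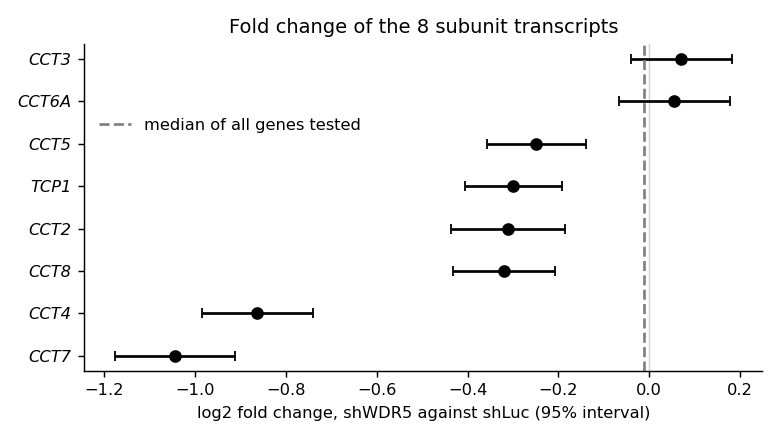
Log2 fold change of each subunit in shWDR5 against shLuc cells (points) with 95% intervals from the edgeR fit (bars). The dashed line is the median of all genes tested, -0.011. CCT7 and CCT4 lie lowest, 4 subunits lie between -0.32 and -0.25, and the intervals of CCT3 and CCT6A include 0.

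The subunits are highly expressed genes, and the depth left little counting error. Each subunit had between 10298 and 36056 reads in a library, for a Poisson error between 0.527% and 0.985% of the count. Summed over the ring, the transcripts made up 3411 ± 79.1 CPM (SD, n = 3) in shLuc cells and 2703 ± 63.5 CPM in shWDR5 cells.

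**Figure D2:**
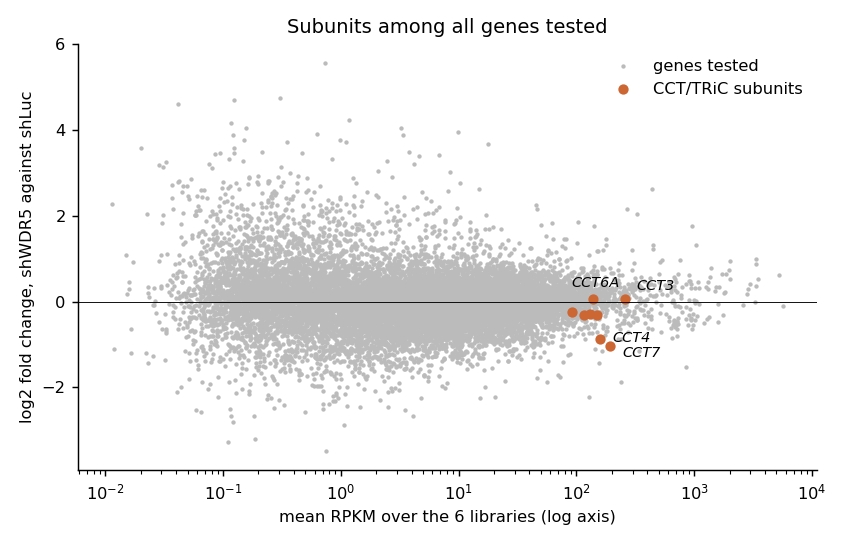
Log2 fold change in shWDR5 against shLuc cells (vertical axis) by mean RPKM over the 6 libraries (horizontal log axis) for the 16117 genes tested (grey) and the 8 subunits (orange). The subunits lie among the more highly expressed genes, with CCT4 and CCT7 near the lower edge of the cloud at their level.

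Levels of different subunits were compared per kilobase of exon, as RPKM scaled by TMM. In shLuc cells CCT7 was highest, at 260.1 ± 12.2 RPKM (SD, n = 3), and CCT3 was next at 254 ± 7.81 RPKM. These leading subunits were not separated, since their ranges overlapped and CCT7 was above CCT3 in 2 of the 3 libraries. CCT4 followed at 204 ± 6.10 RPKM, CCT8 at 167 ± 4.58 RPKM and TCP1 at 144 ± 3.67 RPKM. CCT6A at 135 ± 5.90 RPKM overlapped both TCP1 above it and CCT2 below it, which was at 129.8 ± 5.38 RPKM, although within each of the 3 libraries TCP1 was above CCT6A and CCT6A above CCT2. CCT5 was lowest, at 100.1 ± 1.95 RPKM. Its counted exons span 4032 bases, against 2032 to 2664 bases for the other subunits, and a rarely used long exon among them would lower its level per kilobase.

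The order changed in shWDR5 cells. CCT3 alone led, at 266 ± 6.97 RPKM, with no overlap with the next subunit. CCT6A had moved from the sixth to the second place with 140.5 ± 5.34 RPKM, overlapping CCT8 at 134 ± 4.16 RPKM. CCT7 was in the fourth place at 126 ± 6.62 RPKM, overlapping CCT8, and CCT4 in the sixth at 112 ± 5.29 RPKM. TCP1 lay between them at 117 ± 1.46 RPKM, CCT2 at 105 ± 4.72 RPKM overlapped CCT4, and CCT5 stayed lowest at 84.2 ± 2.26 RPKM. Within each of the 3 libraries the order of these overlapping neighbours was the same as that of their means. The highest subunit exceeded the lowest 2.60-fold in shLuc cells and 3.16-fold in shWDR5 cells.

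Stoichiometry of the subunit transcripts was then expressed as the share of each in the summed counts per kilobase of the ring, which needs no scaling between libraries. These libraries measured RNA, so the shares do not give the protein make-up of the assembled ring. CCT7 took 19.3%, 18.9% and 17.8% of the ring transcripts in shLuc cells and 12.0%, 11.6% and 11.2% in shWDR5 cells. CCT4 went from 14.6%, 14.5% and 14.7% to 10.5%, 10.4% and 10.04%. In contrast, CCT3 took 18.5%, 18.1% and 18.0% in shLuc cells and 25.05%, 24.1% and 24.6% in shWDR5 cells. CCT6A went from 9.25%, 9.80% and 10.1% to 12.3%, 13.1% and 13.5%. None of these 4 shares overlapped between groups, and the mean differences were -7.04 percentage points for CCT7, -4.29 for CCT4, 6.36 for CCT3 and 3.26 for CCT6A. For each of them the exact two-sided permutation p was 0.1, which is the smallest that 3 libraries against 3 can give.

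The remaining subunits kept nearly the same share of the ring. Their shares rose by between 0.331 and 0.584 percentage points, from 10.4% to 10.8% for TCP1, from 9.31% to 9.64% for CCT2, from 7.18% to 7.77% for CCT5 and from 12.0% to 12.3% for CCT8 (group means). Shares of raw counts gave rises of 0.265 points for TCP1, 0.148 for CCT2, 0.732 for CCT5 and 0.125 for CCT8. Shares overlapped between groups for CCT2 and CCT8 (unadjusted exact permutation p = 0.2 each) and not for TCP1 and CCT5 (unadjusted exact permutation p = 0.1 each). A rise in some shares follows from the fall in others, as the shares of a library sum to a fixed total.

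Whether subunits departed from the ring as a whole was tested by refitting all 16117 genes with each library scaled to its summed ring transcripts, a fit added after the data were seen. Relative to the ring, CCT7 (log2 fold change -0.68 ± 0.056 SE, adjusted p = 4.86e-06) and CCT4 (-0.50 ± 0.050, adjusted p = 1.43e-05) were lower, where 11.7% of all genes were lower on this scale. CCT3 (0.43 ± 0.048, adjusted p = 3.21e-05) and CCT6A (0.42 ± 0.058, adjusted p = 0.000136) were higher, where 55.7% of all genes were. On this scale the median of all genes tested was 0.35, so CCT3 and CCT6A were close to the bulk of genes. TCP1, CCT2, CCT5 and CCT8 were between 0.042 and 0.11 relative to the ring, and none of these 4 passed the test (adjusted p between 0.0671 and 0.463). Parts of a sum cannot all lie above it or all below it, so the directions are partly fixed by the scaling.

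Ratios between pairs of subunits describe the shift without reference to the rest of the ring. The pairs given here were not set before the data were seen. CCT3 and CCT6A, which did not pass the test, were set against the subunits that fell most, so large shifts follow from the choice. Per kilobase, the CCT3 transcript was 0.976 times the CCT7 transcript in shLuc cells and 2.11 times in shWDR5 cells. The log2 ratio was -0.068, -0.059 and 0.022 in the control libraries and 1.06, 1.05 and 1.13 in the silenced libraries, with no overlap. CCT6A to CCT7 went from 0.520 to 1.12, and CCT3 to CCT4 from 1.25 to 2.38. The ratio of CCT3 to CCT6A moved by less than its spread. It was 1.88 in shLuc and 1.90 in shWDR5 cells, a log2 difference of 0.015 against SDs of 0.080 and 0.086 between libraries. CCT4 to CCT7 was 0.784 and 0.889, a log2 difference of 0.18 against SDs of 0.071 and 0.018, and the groups did not overlap. The ratio of TCP1 to CCT8, both in the middle group, was 0.865 and 0.877.

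Start regions of the subunit genes were taken from RefSeq (GRCh38.p14), which gave 9 windows of 300 bases for 7 of the 8 genes, each from 250 bases before to 50 bases after an annotated start. They are shown for CCT7 and CCT4, whose transcripts fell most, and for CCT3, which did not pass the test. Windows were searched on both strands for a short set of motifs. Capitals mark GGGCGG (the SP1 core), CCAAT (the NFY core) and the heat-shock element cores TTCNNGAA and GAANNTTC, in either orientation. The windows lie at chr2:73234058-73234357 (plus strand) for CCT7, chr2:61888607-61888906 (minus strand, 1 of 2 annotated starts) for CCT4 and chr1:156338243-156338542 (minus strand) for CCT3, each written 5′ to 3′ along the gene's strand.
CCT7: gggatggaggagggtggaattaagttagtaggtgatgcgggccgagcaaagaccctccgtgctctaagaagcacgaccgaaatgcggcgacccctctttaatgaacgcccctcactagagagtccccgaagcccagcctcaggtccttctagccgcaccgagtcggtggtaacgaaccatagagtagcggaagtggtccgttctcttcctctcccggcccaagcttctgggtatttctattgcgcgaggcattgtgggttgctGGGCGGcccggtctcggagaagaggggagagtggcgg
CCT4: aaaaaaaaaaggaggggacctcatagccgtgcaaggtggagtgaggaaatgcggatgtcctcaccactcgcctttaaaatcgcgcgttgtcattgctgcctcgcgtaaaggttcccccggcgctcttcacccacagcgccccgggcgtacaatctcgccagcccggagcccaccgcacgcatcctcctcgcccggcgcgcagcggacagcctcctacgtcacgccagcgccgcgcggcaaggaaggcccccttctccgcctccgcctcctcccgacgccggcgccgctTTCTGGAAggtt
CCT3: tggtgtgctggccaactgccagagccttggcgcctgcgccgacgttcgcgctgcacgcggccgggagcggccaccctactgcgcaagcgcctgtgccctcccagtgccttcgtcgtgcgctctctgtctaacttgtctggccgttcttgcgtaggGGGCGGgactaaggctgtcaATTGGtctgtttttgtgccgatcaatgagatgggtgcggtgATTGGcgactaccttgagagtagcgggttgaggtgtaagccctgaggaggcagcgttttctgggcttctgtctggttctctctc

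CCT3 held CCAAT in reverse orientation at 2 places and GGGCGG once, CCT7 held GGGCGG once, and CCT4 held TTCNNGAA once. The only CCT5 window lies around an annotated start downstream of the gene's start codon. The region before the first coding exon of CCT5 was thus largely not searched. Over the 7 matched genes, GGGCGG was found for 5 (TCP1, CCT2, CCT3, CCT7 and CCT8) and in 45.0% of 35116 RefSeq windows of the same length. CCAAT was found for TCP1, CCT2, CCT3 and CCT8, and in 34.6% of all windows. The heat-shock cores were found for CCT4 (TTCNNGAA, 7.74% of all windows) and for TCP1 and CCT2 (GAANNTTC, 6.77%). The E-box CACGTG, bound by MYC with MAX, was in none of the 9 windows and in 7.26% of all, and the NRF1 palindrome and a CGCG-centred palindrome found in some housekeeping promoters were in none either (1.24% and 0.424% of all windows). CCGGAAG (ETS) and AAGATGG (YY1) were found for CCT2 alone (10.3% and 5.84% of all windows). No motif was shared by CCT4 and CCT7 in these windows. The windows held between 57.7% and 70.0% G and C, where the median of all windows was 58.7%.

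Several subunit genes start close to another gene on the opposite strand, and the transcripts of these neighbours did not simply follow the subunit. By the coordinates of the count table, 6 genes started within 2000 bases of a subunit's start on the other strand. FAM173B, 12 bases from the start of CCT5, was lower by nearly the same amount as its partner (log2 fold change -0.24 ± 0.075 SE, adjusted p = 0.0202). PSPH, which makes serine in its last biosynthetic step, starts 110 bases from CCT6A and was lower (-0.20 ± 0.070, adjusted p = 0.0308), whereas CCT6A itself did not pass the test. MRPL18, a mitochondrial ribosomal protein gene 757 bases from TCP1, was lower (-0.21 ± 0.055, adjusted p = 0.00864). PRADC1, 1008 bases from CCT7, had a log2 fold change of 0.010 ± 0.081 (adjusted p = 0.926), with 8.36 RPKM in shLuc and 8.43 RPKM in shWDR5 cells, beside the large fall of CCT7. TSACC, 1101 bases from CCT3, was higher (0.86 ± 0.16, adjusted p = 0.0011) at a low level of 0.835 and 1.52 RPKM. MIR3913-1, 605 bases from CCT2, had no counts.

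ACAT2, an enzyme of acetoacetyl-CoA metabolism, shares 454 exon bases with TCP1 on the opposite strand. It gave 41.3, 36.1 and 35.5 RPKM in shLuc cells and 23.4, 24.7 and 21.2 RPKM in shWDR5 cells, a log2 fold change of -0.70 ± 0.079 (SE, adjusted p = 3.27e-05). Whether reads were counted by strand is not given in the sources used here, so TCP1 and ACAT2 reads from the shared stretch cannot be told apart. CCT6A has near-identical copies. CCT6P1 and CCT6P3, pseudogenes of CCT6A, had 89 to 168 and 103 to 204 reads per library, against at least 13721 for CCT6A, and were higher in shWDR5 cells (log2 fold change 0.35 ± 0.11, adjusted p = 0.0162, and 0.37 ± 0.12, adjusted p = 0.0251). These calls were lost in 2 and 4 of 14 alternatives, respectively. Reads of these copies could have been split with CCT6A by the counting. CCT6B, the testis form, had 48 to 97 reads per library and a log2 fold change of 0.024 ± 0.18 (adjusted p = 0.922), and CCT8L2, with at most 3 reads in a library, was removed by the filter.

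A list of 59 other genes was examined, made up of cofactors and clients of the ring, chaperonin-like and mitochondrial chaperonin genes, the 4 copies of subunit genes above and the heat-shock factors HSF1 and HSF2. Of these, 57 passed the filter, of which 15 were lower, 17 were higher and 25 did not pass the test. Without shLuc replicate 3, 11 were higher. The median log2 fold change of the 57 was -0.0073. These counts are close to the shares for all genes tested, 29.9% lower and 26.6% higher, and CCT6P1 and CCT6P3 are among the higher genes.

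Prefoldin, the hexamer that hands nascent actin and tubulin to the ring, was measured for all 6 subunits (PFDN1, PFDN2, VBP1, PFDN4, PFDN5, PFDN6). None passed the edgeR test in either direction, where 29.9% of all genes tested were lower and 26.6% higher. At an unadjusted p under 0.05, 1 was lower, and DESeq2 and the edgeR exact test called none. With the replicate number as a block in the edgeR fit, 4 were lower. The median log2 fold change was -0.14, with values from -0.22 for PFDN4 to 0.052 for PFDN5. Of the phosducin-like cofactors, which bind the ring together with G protein beta subunits and other clients, PDCL was lower (log2 fold change -0.33 ± 0.081 SE, adjusted p = 0.00494). PDCL3 and TXNDC9 did not pass, and PDCL2 had no reads.

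The tubulin cofactors act after the ring, when tubulin monomers are joined into dimers, and moved in both directions. TBCB (log2 fold change 0.55 ± 0.075, adjusted p = 0.000119) and TBCC (0.46 ± 0.097, adjusted p = 0.00233) were higher. ARL2, the small GTPase of the dimer assembly complex, was lower (-0.45 ± 0.091, adjusted p = 0.0018). TBCD (0.17 ± 0.063) and TBCE (-0.19 ± 0.069) were just past the threshold, and both calls were lost in several alternatives. TBCA and TBCEL did not pass. Among the chaperonin-like ciliary proteins, BBS10 was lower (-0.50 ± 0.13, adjusted p = 0.0061), BBS12 was higher (0.35 ± 0.087, adjusted p = 0.00619) and MKKS did not pass. HSPD1, the chaperonin of mitochondria, had a log2 fold change of -0.17 ± 0.056 (adjusted p = 0.0254, lost in several alternatives). Its co-chaperonin HSPE1 had a value of the other sign and did not pass (0.18 ± 0.074, adjusted p = 0.0567).

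Transcripts of actin and tubulin, the main clients, had calls in both directions. Of 13 such genes, 4 were lower and 6 were higher, where 29.9% of all genes tested were lower and 26.6% higher, and their median log2 fold change was 0.18. TUBA1A rose most (log2 fold change 1.51 ± 0.068, adjusted p = 1.41e-07), from a mean of 7.21 to 20.5 RPKM. TUBB2A (0.84 ± 0.096), TUBB3 (0.83 ± 0.078), TUBA4A (0.26 ± 0.066) and TUBB6 (0.19 ± 0.055) were higher as well. TUBA1B (-0.47 ± 0.081), TUBB4B (-0.43 ± 0.055) and TUBG1 (-0.39 ± 0.067), the first pair of which are abundant tubulins of dividing cells, were lower. Adjusted p lay between 9.94e-06 and 0.0118 for these 7 genes. TUBB and ACTB, the most highly expressed tubulin and actin genes in the list, did not pass. ACTG1, the other actin gene of the list, was higher (0.18 ± 0.059, adjusted p = 0.0231). TUBA1C was lower (-0.24 ± 0.069, adjusted p = 0.0132). The calls of ACTG1 and TUBA1C were lost in some alternatives. Tubulin genes have near-identical copies that can share reads, so their values are uncertain.

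Of 18 other clients, 5 were lower, 5 were higher and 8 did not pass, with a median log2 fold change of 0.020. Both counts are close to the shares for all genes tested, 29.9% lower and 26.6% higher. The lower genes included the mitotic regulators CDC20 (-0.65 ± 0.063, adjusted p = 1.32e-05), PLK1 (-0.41 ± 0.061, adjusted p = 0.000217) and BUB3 (-0.30 ± 0.057, adjusted p = 0.0011). WRAP53, the telomerase trafficking factor (-0.37 ± 0.10, adjusted p = 0.00977), and the tumour suppressor VHL (-0.23 ± 0.059, adjusted p = 0.00782) completed this group. The higher genes included CCNE1 (0.48 ± 0.089, adjusted p = 0.000987), the mTOR partner MLST8 (0.37 ± 0.064, adjusted p = 0.000604) and the G protein subunit GNB2 (0.22 ± 0.067, adjusted p = 0.0176). The last call was lost in some alternatives. HSF1, the main heat-shock factor, did not pass (0.19 ± 0.075, adjusted p = 0.0508), and HSF2 was lower (-0.41 ± 0.072, adjusted p = 0.000669).

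The genes whose pattern over the 6 libraries was most like the mean log2 CPM of the ring were sought among 5776 other genes with at least 10 RPKM on average. SUPT16H (a histone chaperone subunit), HMGN2 (a nucleosome-binding protein), FH (fumarate hydratase), MCM6 (a replicative helicase subunit) and BMS1 (a ribosome biogenesis GTPase) ranked highest, with Pearson's r between 0.99917 and 0.99973. This is a description over 6 libraries that fall in 2 groups, and 215 genes had r over 0.99. Their log2 fold changes ran from -1.11 for MCM6 to -0.34 for BMS1.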

How the data were processed

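Poly-A RNA libraries of 6 samples (3 shLuc, 3 shWDR5) were analysed. The deposited table holds raw read counts per gene, which the authors made, per the labels, with TopHat2 2.1.0 and featureCounts on hg19 (the strand setting is not given in the sources used here), with exon coordinates and exon length. A second table with the authors' edgeR 3.2.2 comparison (fold change, mean log CPM, F, p and FDR) was not used. Counts were tested in edgeR 4.0.16 (R 4.3.3) with filterByExpr, TMM scaling and the quasi-likelihood F test, without covariates, with Benjamini-Hochberg adjustment over 16117 genes. The SE is the log2 fold change divided by the root of F, and intervals are 95%. The fit was also run on simulated counts in which far fewer genes changed than were called here, so that run does not test it at this breadth. Alternatives were DESeq2 1.42.0, the edgeR exact test, other scalings and filters, a replicate block and leaving out each library. Depth was 38218108 to 57640167 counts per library.

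The subunits and gene lists were chosen with earlier results of these data known. Named genes were all 8 subunits, WDR5, neighbouring genes by coordinates, up to 8 list genes with an adjusted p under 0.05 per list, and the 5 genes most correlated with the ring. ACTG1 and TUBA1C, the remaining calls among actin and tubulin genes, were named besides, after their values were seen. Genes named that did not pass the test were named after their values were seen. The ring-scaled fit was added after seeing the data.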

Additional observations from a re-analysis of the deposited data

How the results depend on the processing

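Over 14 alternatives (scaling, filter, test, replicate block and each library left out), 6 of 8 subunits stayed lower, and 2 stayed lower by the study's cut-offs. The adjusted p of these 6 lay between 8.36e-46 (edgeR exact test) and 0.00829 (quasi-likelihood test without shLuc replicate 3). CCT7 ranged from -1.10 to -0.99, CCT4 from -0.92 to -0.82 and CCT3 from 0.013 to 0.11 on the log2 scale. With libraries scaled by their totals alone, the median of the subunits moved to -0.36 and CCT6A turned to -0.0016, while the median of all genes moved by -0.057. Shares taken from raw counts instead of counts per kilobase differed by 0.27 (TCP1), 0.15 (CCT2), 5.76 (CCT3), -4.30 (CCT4), 0.73 (CCT5), 3.29 (CCT6A), -6.02 (CCT7) and 0.12 (CCT8) percentage points between groups. Leaving out 1 library gave between 11 (without shLuc replicate 3) and 17 higher genes among the 59 listed beside the ring, 17 with all libraries. Of 28 such genes named by the limit of 8 per list, 22 kept their call in every alternative, and TBCD, TBCE, HSPD1, CCT6P1, CCT6P3 and GNB2 lost it in at least 1. ACTG1 and TUBA1C, named besides, also lost it in at least 1. Relative to the ring, the counts of 2 lower and 2 higher subunits were the same without each library and with the block. Same-numbered libraries of the groups did not deviate together throughout (r = 0.37, 0.036 and 0.12 for replicates 1, 2 and 3), so the numbers were not taken as pairs. With the replicate block, 6 subunits stayed lower, 5511 genes were lower in place of 4821 and 4901 higher in place of 4291, and 4 prefoldin genes were lower in place of 0. The cause of these moves was not tested.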
